A study of Mus musculus with 4 samples.

Results

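The Forkhead (Fox) family of transcription factors was examined in RNA-seq values from sorted palatal mesenchyme of 4 mouse embryos at E13.5. Members were taken by symbol, as all genes named Fox with a subfamily letter and a number, with *Foxf1* under its older symbol *Foxf1a*. The rule gave 44 of the 22096 gene symbols measured and 52 of the 28107 RefSeq entries. It left out 3 symbols that only begin with the same letters (*Foxl2os*, *Foxred1* and *Foxred2*). All 4 embryos were of mixed background and carried 1 Osr2RFP knock-in allele, whose red fluorescence marks *Osr2*-expressing cells and was used to sort the palatal cells of each embryo separately. The embryos were littermates. 2 were *Foxf2-/-* (the mutants), 1 was *Foxf2+/-* (the heterozygous control), and 1 was *Foxf2+/+*, labelled Osr2RFP/+ alone (the wildtype control). The *Foxf2* null allele was constitutive, so the sorted cells, the tongue and every other tissue of a mutant carried no functional copy. Each control genotype had 1 embryo, and a difference between the controls therefore had no replicate check.

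Fox proteins share a winged-helix DNA-binding domain, the forkhead box, and are sorted by its sequence into subfamilies named by letter. In the developing face, *Foxf1*, *Foxf2*, *Foxd1* and *Foxd2* are known in the facial mesenchyme, and Hedgehog signaling maintains the Foxf genes there. *Foxc1* and *Foxc2* act in head mesenchyme and vessels, the FoxO factors are held out of the nucleus by insulin and growth factor signaling through Akt, and FoxM1 drives genes of mitosis. Many Fox genes lie side by side in the genome: *Foxq1*, *Foxf2* and *Foxc1* form 1 cluster, and *Foxf1a*, *Foxc2* and *Foxl1* form another.

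The family was measured through reads from genes with a conserved domain, so the shared sequence is shown for the related pairs on which the results turn. Within the forkhead box, a stretch of 150 bases was identical at 142 positions in each pair, and the 8 mismatches, printed in capitals, all fell at the last base of a codon. The stretches were read from the plus strand of mm9 (NCBIM37), 5′ to 3′, and lie in the coding part of exon 1. For the Foxf pair they are chr8:123608446-123608595 for *Foxf1a* and chr13:31718252-31718401 for *Foxf2*.
Foxf1a: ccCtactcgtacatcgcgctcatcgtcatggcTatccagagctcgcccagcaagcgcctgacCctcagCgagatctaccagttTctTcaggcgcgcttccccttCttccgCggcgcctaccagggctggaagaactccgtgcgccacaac
Foxf2: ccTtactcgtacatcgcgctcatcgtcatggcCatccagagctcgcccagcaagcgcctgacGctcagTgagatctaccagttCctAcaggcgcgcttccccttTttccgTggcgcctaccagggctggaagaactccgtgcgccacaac
For the Foxc pair they are chr13:31899458-31899607 for *Foxc1* and chr8:123640875-123641024 for *Foxc2*.
Foxc1: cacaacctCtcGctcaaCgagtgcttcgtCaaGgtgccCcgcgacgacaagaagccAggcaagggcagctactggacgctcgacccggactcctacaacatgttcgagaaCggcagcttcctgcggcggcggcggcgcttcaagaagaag
Foxc2: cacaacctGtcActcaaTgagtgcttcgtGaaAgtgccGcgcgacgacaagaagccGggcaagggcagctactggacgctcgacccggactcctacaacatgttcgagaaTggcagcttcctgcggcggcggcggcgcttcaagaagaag
The longest run without a mismatch in the whole annotated transcripts was 53 bases for *Foxc1* and *Foxc2*, 47 for *Foxd1* and *Foxd2*, and 41 for *Foxf1a* and *Foxf2*. Among 253 pairs of Fox genes compared, only the Foxc pair shared 50 or more bases. The pairs came from 23 Fox genes that reached 1 FPKM in at least 1 embryo. *Foxl1* also reached it but had no transcript sequence on hand and was not compared. The read length is not given in the sources used here, so whether any read was split between these pairs was not tested.

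Each value is an FPKM, a count of fragments corrected for transcript length and for the mapped fragments of the library, so levels of different genes can be compared. Library depth, as a number of reads, is unknown. From the ratio of coverage to FPKM the libraries differed in relative depth by at most 1.19 times. The 10 markers of palatal mesenchyme summed to between 1052 and 1184 FPKM in every embryo, led by *Col1a1* (227 to 304), *Barx1* (200 to 239) and *Osr2* (129 to 147). Within this sum single markers differed. Both mutants were below both controls for *Shox2*, *Twist1*, *Prrx1* and *Pdgfra*, against a background of 35.5% of all genes tested. They were above both for *Pax9*, against a background of 10.2%. None of the list passed the criterion or limma described below. *Shox2* was at 114 and 73.4 FPKM in the controls, against 47.7 and 63.7 in the mutants, *Twist1* at 133 and 125 against 103 and 107, and *Pax9* at 81.2 and 100.1 against 127 and 127. Epithelial markers summed to 7.58 to 9.58, endothelial markers to 0.467 to 1.87, skeletal muscle markers to 0.392 to 0.864, and neuronal and glial markers to 3.58 to 7.43. Cartilage and bone markers summed to 82.2 to 87.0, and pericyte and smooth muscle markers to 44.5 to 49.8. The macrophage and blood list differed most between embryos. It summed to 283 in the wildtype control, 1717 in the heterozygous control, and 1489 and 4090 in the mutants, nearly all of it from the embryonic globins *Hbb-y* and *Hba-x*. The Y-linked markers were measured in all embryos and *Xist* stayed at 0.0270 to 0.0455 FPKM, the same pattern in all 4.

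Of the 44 Fox genes, 24 reached 1 FPKM in at least 1 embryo and were tested, among 11571 genes in all. Of these, 19 reached 1 FPKM in every embryo, and 15 reached 5 FPKM in at least 1 embryo. By the mean of the controls, the order began with *Foxf1a* at 88.1 ± 14.7 FPKM (SD, n = 2) and *Foxf2* at 65.2 ± 28.5. The controls have different numbers of *Foxf2* alleles, so the *Foxf2* SD is between genotypes and is no replicate spread. The order of these 2 genes was not tested. *Foxm1*, *Foxo3*, *Foxn3* and *Foxd1* followed between 18.5 and 25.2 FPKM. In the wildtype control alone *Foxf2* was first. In the mutants *Foxf1a* was first at 84.5 ± 10.0 FPKM (SD, n = 2). *Foxd1* came next at 31.9 ± 2.48, *Foxq1* was sixth at 18.9 ± 1.44, and *Foxf2* was at rank 21 with 1.84 ± 0.61. The whole family summed to 338 FPKM in the wildtype control, 332 in the heterozygous control, and 278 and 320 in the mutants. Without *Foxf2* the sums were 253, 287, 277 and 318, so the groups overlapped once *Foxf2* was set aside.

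**Figure D1:**
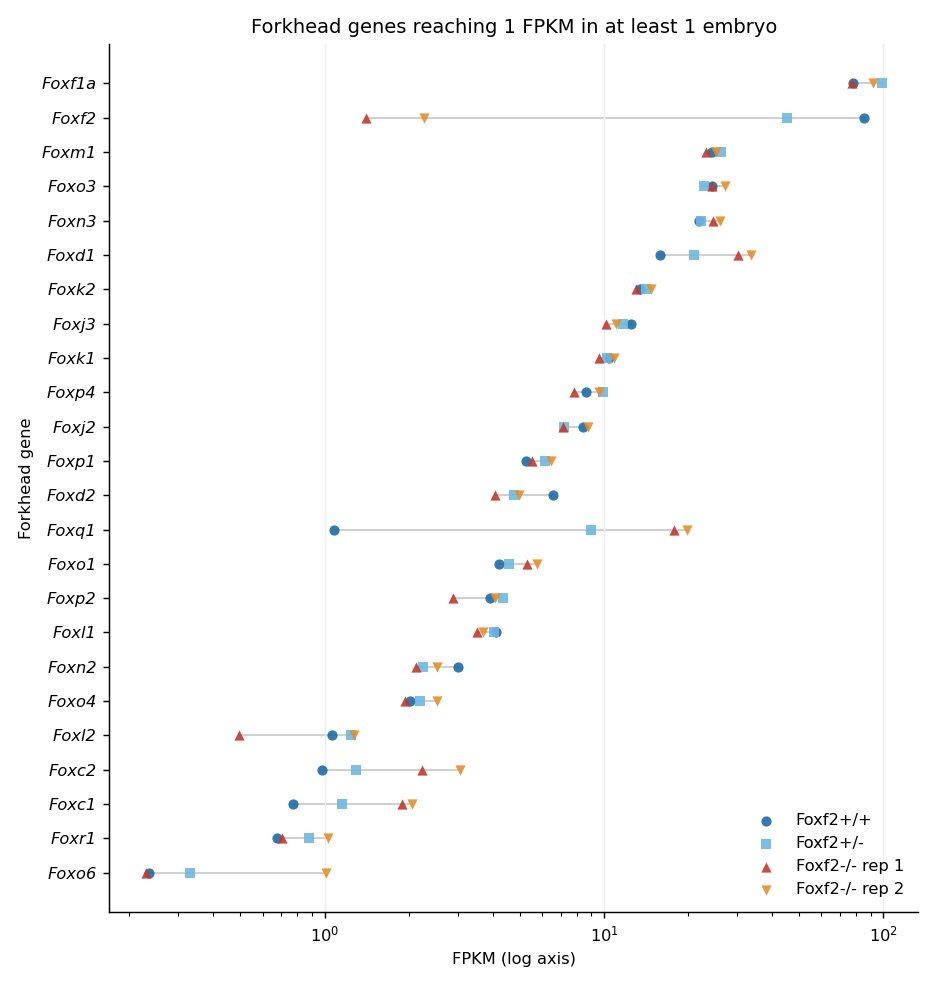
FPKM (log axis) of the 24 Fox genes that reached 1 FPKM, 1 symbol per embryo, ordered by the mean of the 2 controls, with a grey line from the lowest to the highest embryo. *Foxf2* spans 1.41 to 85.4 FPKM and *Foxq1* 1.08 to 19.9, while most other genes lie within a narrow range.

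*Foxf2* was the targeted gene and was examined first. It lies on the plus strand of chromosome 13 of mm9, from 31717685 to 31723275, with 2 exons. Its level was 85.4 FPKM in the wildtype control, 45.1 in the heterozygous control, and 1.41 and 2.28 in the mutants. The heterozygous control had 0.529 times the wildtype value on the log2(FPKM + 0.1) scale, and both mutants were far below both controls. The mutant mean was 45.1-fold below the wildtype control and 23.8-fold below the heterozygous one. In limma, *Foxf2* fell with a log2 fold change of -5.03 (SE 0.31, adjusted p = 0.0043). The call was lost in limma with no filter on low genes (adjusted p = 0.362), with only the longest entry of each symbol (0.222), without a variance trend (0.138) and with null alleles as a linear term (0.0665), though the direction was the same in all. It was 25.3% of the family's summed FPKM in the wildtype control and 13.6% in the heterozygous control, and 0.507% and 0.711% in the mutants. Which part of the transcript gave the remaining mutant signal cannot be read from the tables. In bulk RNA such as this, fewer cells of a type and less RNA per cell cannot be told apart, which holds for every gene below.

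*Foxf1a*, the closest relative of *Foxf2* and its partner in facial mesenchyme, lies on chromosome 8 from 123608374 to 123610779 and was not lower or higher in the mutants beyond the spread. It was at 77.7 FPKM in the wildtype control, 98.5 in the heterozygous control, and 77.4 and 91.6 in the mutants. The groups overlapped, with the lowest and the second highest value both from mutants (log2 fold change -0.06, limma adjusted p = 0.896). The direction of this small difference turned positive when the embryos were rescaled by median ratios. The 2 Foxf genes together summed to 163 and 144 FPKM in the controls, against 78.8 and 93.9 in the mutants. The ratio of *Foxf1a* to *Foxf2* was 0.911 in the wildtype and 2.19 in the heterozygous control, and 54.8 and 40.2 in the mutants.

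Across the family, the first comparison asked for which Fox genes the mutant mean lay more than 1.5-fold above, or more than 1.5-fold below, each of the controls. *Foxq1*, *Foxd1*, *Foxc2* and *Foxc1* were higher by this criterion, 4 of 24, against a background of 0.873% of all genes tested. *Foxf2*, the targeted gene, was lower, 1 of 24, against a background of 0.994%. By limma, with an adjusted p under 0.05 and more than a 1.5-fold difference required, 0 Fox genes were higher, against a background of 0.0519%. By the same test only *Foxf2* was lower. It was the only gene called lower among all 11571 genes tested, so the background of 0.00864% is *Foxf2* itself. Its fall was set by the design and tells nothing about the rest of the family. At an unadjusted p under 0.05, limma gave 6 of the 24 Fox genes (*Foxf2*, *Foxq1*, *Foxd1*, *Foxc2*, *Foxc1* and *Foxo1*), against 13.0% of all genes tested. The smallest p that an exact permutation test of 2 mutants against 2 controls allows is 0.333. The median log2 fold change of the 24 genes was 0.02, beside -0.08 for all genes tested, and 14 of the 24 were within 0.2 of 0.

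**Figure D2:**
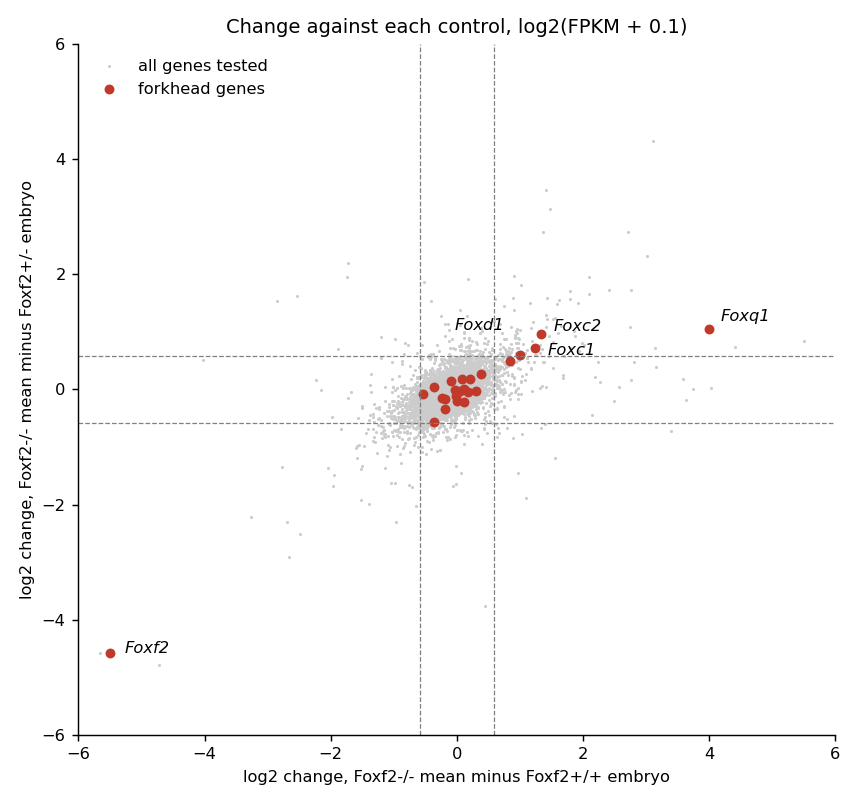
Log2 change of each gene tested, from the wildtype control (horizontal axis) and from the heterozygous control (vertical axis) to the mean of both mutants, with Fox genes as red points and dashed lines at a 1.5-fold change. *Foxq1*, *Foxc2*, *Foxc1* and *Foxd1* lie beyond both lines to the upper right and *Foxf2* to the lower left. Outside the axes lies 1 gene, which is not a Fox gene.

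*Foxq1*, a factor best known from hair shaft differentiation and from epithelial cells, had the largest positive difference in the family. It lies on chromosome 13 from 31650039 to 31652843, 64.8 kb from *Foxf2*. Its FPKM was 1.08 in the wildtype and 9.01 in the heterozygous control, against 17.9 and 19.9 in the mutants. Both mutants were above both controls, and the heterozygous control stood apart from the wildtype one by 7.71-fold. On the log2(FPKM + 0.1) scale the mutant mean was 16.0-fold above the wildtype control and 2.08-fold above the heterozygous one. With the 2 unlike controls as 1 group, limma gave a log2 fold change of 2.53 (SE 0.77) and an adjusted p of 0.301. The result depended on the control. Without the heterozygous embryo the log2 fold change was 4.00 with a limma adjusted p of 0.00021, and without the wildtype embryo it was 1.06 with 0.126. In those fits the single control embryo was assumed to vary as the mutants did. An antisense transcript, A530084C06Rik, overlaps exons of *Foxq1* in the GENCODE annotation, and the library kit does not mark strand, so their reads could not be told apart.

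*Foxc1*, needed in the mesenchyme of the head and eye, lies on the other side of *Foxf2*, from 31898515 to 31902504, across a gap of 175 kb. It was at 0.772 FPKM in the wildtype control, 1.15 in the heterozygous control, and 1.89 and 2.05 in the mutants. Both mutants were above both controls by 2.37-fold and 1.65-fold on average, with a log2 fold change of 0.99 (SE 0.25, limma adjusted p = 0.251). Its paralog *Foxc2*, which acts with it in vessels and in head mesenchyme, lies on chromosome 8 from 123640071 to 123642794, 29.3 kb from *Foxf1a*. *Foxc2* was at 0.980 FPKM in the wildtype control, 1.29 in the heterozygous control, and 2.23 and 3.05 in the mutants. Again both mutants were the highest, 2.51-fold above the wildtype and 1.95-fold above the heterozygous control (log2 fold change 1.14, SE 0.23, limma adjusted p = 0.177). The Foxc levels were low throughout, near the limit of 1 FPKM for testing. With a filter of 5 FPKM neither gene was tested, and with a pseudocount of 1 FPKM *Foxc1* missed the criterion.

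Markers of other cell types also differed between these embryos, in mixed ways. The 6 endothelial markers (*Cdh5*, *Pecam1*, *Tek*, *Kdr*, *Emcn* and *Esam*) summed to 0.467 FPKM in the wildtype control, 0.936 in the heterozygous control, and 1.02 and 1.87 in the mutants. None of the 6 reached 1 FPKM in any embryo. Only *Kdr* (0.104, 0.132, 0.219 and 0.299 FPKM in that order) and *Emcn* (0, 0.346, 0.450 and 0.812) followed the order of the sum, and *Tek* was highest in the wildtype control, at 0.241 FPKM against at most 0.0899 elsewhere. Of the pericyte and smooth muscle markers, the channel subunit *Abcc9* was at 0.256, 0.473, 0.352 and 1.65 FPKM in the wildtype control, the heterozygous control and the mutants in turn, and was higher by the criterion. The smooth muscle myosin *Myh11*, at 1.13, 0.840, 0.364 and 0.443, was lower by it. Both globins were lowest in the wildtype control. *Hba-x*, at 125, 674, 654 and 1877 FPKM in the same order, was higher by the criterion (limma adjusted p = 0.353). Its value in mutant replicate 1 was below that of the heterozygous control. The part of these cells in the Foxc and *Foxq1* values was not tested.

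Not every gene of the *Foxf2* cluster was higher. *1700018A04Rik*, which is no Fox gene but lies within the cluster, was at 12.9 and 6.09 FPKM in the controls, against 0 and 0.563 in the mutants. It was lower by the criterion and was not called by limma (adjusted p = 0.104).

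*Foxl1*, a factor of gut and other mesenchyme next to *Foxc2* on chromosome 8 (from 123651585 to 123654544), did not follow its neighbour. It was at 4.11 and 4.06 FPKM in the controls, against 3.52 and 3.69 in the mutants. Both mutants were below both controls, but by 1.14-fold and 1.12-fold only (log2 fold change -0.18, limma adjusted p = 0.570). Another pair of neighbours lies on chromosome 4, where *Foxd2* was measured in all embryos and *Foxe3* was listed at 0 in all of them.

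**Figure D3:**
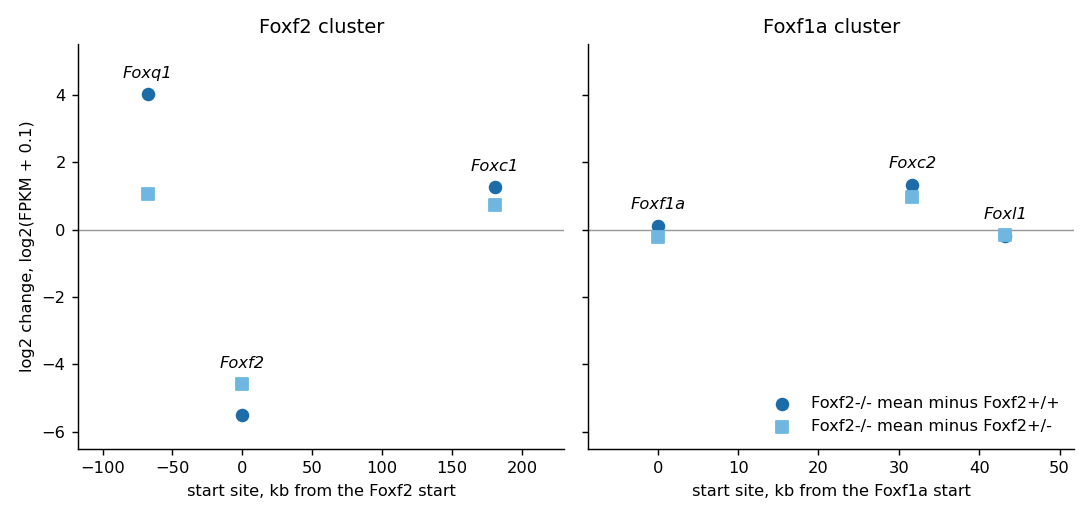
Log2 change from the wildtype control (dark circles) and from the heterozygous control (light squares) to the mutant mean, on log2(FPKM + 0.1), plotted by the distance of each gene's start in kb from *Foxf2* (left) or *Foxf1a* (right). Of the Fox genes, the only ones plotted, *Foxq1* and *Foxc1* are above 0 on both sides of *Foxf2*, and *Foxc2* is above 0 between *Foxf1a* and *Foxl1*.

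*Foxd1*, a marker of stromal and facial mesenchyme, was the best expressed of the 4 genes above the criterion and had the smallest SE. It is a single-exon gene on chromosome 13 from 99124200 to 99126660, far from the *Foxf2* cluster. Its level was 15.9 FPKM in the wildtype control, 21.0 in the heterozygous control, and 30.2 and 33.7 in the mutants. Both mutants were above both controls, with the heterozygous control between, 1.32-fold above the wildtype one. The mutant mean was 2.00-fold above the wildtype control and 1.51-fold above the heterozygous one, just past the criterion. limma gave a log2 fold change of 0.80 (SE 0.14, adjusted p = 0.128). Without the heterozygous embryo it was 0.997 with a limma adjusted p of 0.046, without the wildtype embryo 0.60 with 0.491, and without mutant replicate 2 it was 0.72 and missed the criterion. It also missed it with a pseudocount of 1 FPKM. Its relative *Foxd2*, also a gene of facial mesenchyme, was not higher. *Foxd2* was at 6.59 FPKM in the wildtype control, 4.78 in the heterozygous control, and 4.07 and 4.97 in the mutants, so that the groups overlapped (log2 fold change -0.31, limma adjusted p = 0.493).

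The promoters of the genes past the criterion were searched on both strands for the forkhead motif cores GTAAACA and ATAAACA. RefSeq promoter sequence (GRCm38.p6, another build than that of the expression tables) was on hand for *Foxf2*, *Foxc1* and *Foxd1*, and *Foxq1* and *Foxc2* had no entry. Neither core was in any of the 3. Over the 250 bases before the start, the only stretch searched, GTAAACA was held by 3.17% and ATAAACA by 4.16% of all 32851 promoters. The 250 bases before the start of *Foxc1* and *Foxd1*, the 2 higher genes with an entry, are shown on the plus strand, at chr13:31806396-31806645 and chr13:98353995-98354244.
Foxc1: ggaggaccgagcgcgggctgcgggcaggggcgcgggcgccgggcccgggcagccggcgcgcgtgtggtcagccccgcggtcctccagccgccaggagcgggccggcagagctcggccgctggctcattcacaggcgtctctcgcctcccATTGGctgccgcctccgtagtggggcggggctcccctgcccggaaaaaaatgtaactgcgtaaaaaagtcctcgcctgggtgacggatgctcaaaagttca
Foxd1: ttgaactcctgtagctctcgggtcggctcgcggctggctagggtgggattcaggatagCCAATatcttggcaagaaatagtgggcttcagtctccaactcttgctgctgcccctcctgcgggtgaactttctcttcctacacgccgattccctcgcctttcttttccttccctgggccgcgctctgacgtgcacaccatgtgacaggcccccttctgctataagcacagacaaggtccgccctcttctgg
Capitals mark the CCAAT box, read as ATTGG on the strand shown for *Foxc1*, a motif looked for after the sequences had been seen and held by 33.8% of promoters. The 250 bases were 70.8% G and C for *Foxc1*, 57.2% for *Foxd1* and 71.6% for *Foxf2*, beside a median of 52.4%.

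The other 12 Fox genes that reached 5 FPKM did not pass either rule, with log2 fold changes between -0.31 and 0.33 and limma adjusted p-values between 0.334 and 0.982. Among the FoxO genes, which act in stress resistance and growth control, *Foxo1* was at 4.20 FPKM in the wildtype control, 4.59 in the heterozygous control, and 5.32 and 5.75 in the mutants. Both mutants were above both controls, by less than 1.5-fold (log2 fold change 0.33, limma adjusted p = 0.334). *Foxo3*, the most abundant FoxO gene, was at 24.3 and 22.7 FPKM in the controls, against 24.4 and 27.1 in the mutants, where the lower mutant all but touched the wildtype value (log2 fold change 0.13, limma adjusted p = 0.598). *Foxo4* was at 2.11 ± 0.12 FPKM (SD, n = 2) in the controls, against 2.23 ± 0.41 in the mutants.

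Genes around the FoxO factors were described from lists of textbook regulators and reported targets. Of 20 FoxO regulators, 18 were tested, and by the criterion and by limma 0 were higher and 0 lower. Their median log2 fold change was -0.04 beside -0.08 for all genes. Over all genes tested the criterion gave 0.873% higher and 0.994% lower, and limma gave fewer. A count of 0 in so short a list therefore tells little, here and for the targets below. The most abundant were the 14-3-3 genes *Ywhae* (302 to 342 FPKM), *Ywhaz* (218 to 235) and *Ywhab* (79.3 to 84.7), whose proteins bind phosphorylated FoxO. Of 20 reported FoxO targets, 15 were tested and 0 passed either rule in either direction (median -0.12). Catalase (*Cat*) was at 52.2 to 56.1 FPKM, *Sesn3* at 26.5 to 29.8, and *Cited2* at 20.8 to 29.9. No member of these lists had a limma adjusted p under 0.266, the value of the growth arrest gene *Gadd45a* (log2 fold change -0.67).

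*Foxm1*, which drives genes of mitosis, was at 24.2 FPKM in the wildtype control, 26.2 in the heterozygous control, and 23.1 and 25.1 in the mutants. The groups overlapped (log2 fold change -0.07, limma adjusted p = 0.801). All 18 of its reported targets on the list were tested, with 0 higher and 0 lower by either rule and a median log2 fold change of -0.10. The most abundant were *Cks1b* (80.0 to 85.7 FPKM), *Top2a* (73.5 to 81.9) and *Skp2* (44.2 to 51.1), which is also on the FoxO regulator list. Of 10 Hedgehog pathway readouts, all were tested and 0 passed either rule, with a median of 0.07. For the FoxM1 and Hedgehog lists the criterion backgrounds were again 0.873% and 0.994%, so counts of 0 tell little. The receptor gene *Ptch1*, itself a Hedgehog target, was at 109 and 106 FPKM in the controls, against 91.1 and 97.9 in the mutants. *Smo* was at 52.8 to 60.1 FPKM and *Gas1* at 29.3 to 36.9.

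The FoxK genes, metabolic repressors expressed in most cells, were steady. *Foxk1* was at 10.4 and 10.2 FPKM in the controls, against 9.60 and 10.8 in the mutants, and *Foxk2* was at 13.4 and 14.2 in the controls, against 13.0 and 14.8 in the mutants. In both genes the mutants fell on either side of the controls (limma adjusted p = 0.963 and 0.982). *Foxk2* shares exon sequence with its neighbour *Narf*, *Foxp1* with *Eif4e3*, and *Foxm1* with 4933413G19Rik, so some reads may have been assigned to either gene. Exons of *Foxo1* and *Foxj2* are overlapped on the opposite strand by RP24-337A16.1 and Gm4485, so the limit given for *Foxq1* holds for them too.

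The FoxJ genes differed in pattern. *Foxj2* was at 8.42 and 7.18 FPKM in the controls, against 7.15 and 8.76 in the mutants, with overlapping groups (limma adjusted p = 0.956). *Foxj3* was at 12.5 and 11.7 in the controls, against 10.2 and 11.0 in the mutants, where both mutants were the lower, by less than 1.5-fold (log2 fold change -0.19, limma adjusted p = 0.469). *Foxj1*, the regulator of motile cilia, reached only 0.527 FPKM. Of the FoxN genes, *Foxn3*, a checkpoint repressor, was at 21.9 and 22.2 FPKM in the controls, against 24.6 and 26.0 in the mutants. Both mutants were the higher, again by less than 1.5-fold (log2 fold change 0.19, limma adjusted p = 0.411). *Foxn2* was at 2.63 ± 0.53 FPKM (SD, n = 2) in the controls, against 2.32 ± 0.28 in the mutants.

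The FoxP genes, repressors that act as dimers, were the ones measured by several RefSeq entries each. Summed over entries, *Foxp1* was at 5.28 and 6.14 FPKM in the controls, against 5.52 and 6.48 in the mutants (log2 fold change 0.07, limma adjusted p = 0.857). *Foxp4* was at 8.63 and 9.95 in the controls, against 7.80 and 9.60 in the mutants (log2 fold change -0.10, limma adjusted p = 0.790). *Foxp2* was at 4.12 ± 0.31 FPKM (SD, n = 2) in the controls, against 3.47 ± 0.84 in the mutants (limma adjusted p = 0.576). In all 3 genes the groups overlapped.

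The entries themselves varied more than the sums. The *Foxp4* entry of 4025 bases was at 2.73 FPKM in the wildtype control, 2.29 in the heterozygous control, and 0.850 and 0.635 in the mutants, and both mutants were well below both controls. Its share of *Foxp4* was 31.6% and 23.0% in the controls, against 10.9% and 6.61% in the mutants. The entry of 3986 bases had 1.26, 4.92, 2.94 and 5.19 FPKM in that order of embryos, with overlapping groups. For *Foxp1*, the entry of 7177 bases was the main one, with 65.1% of the FPKM in each control and 50.6% and 78.6% in the mutants. For *Foxp2*, the entry of 6760 bases took 19.0% and 38.0% in the controls, against 57.6% and 38.2% in the mutants, and the groups met at the heterozygous value. The entries of a gene overlap in position and differ little in length, and the split between them was not tested.

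**Figure D4:**
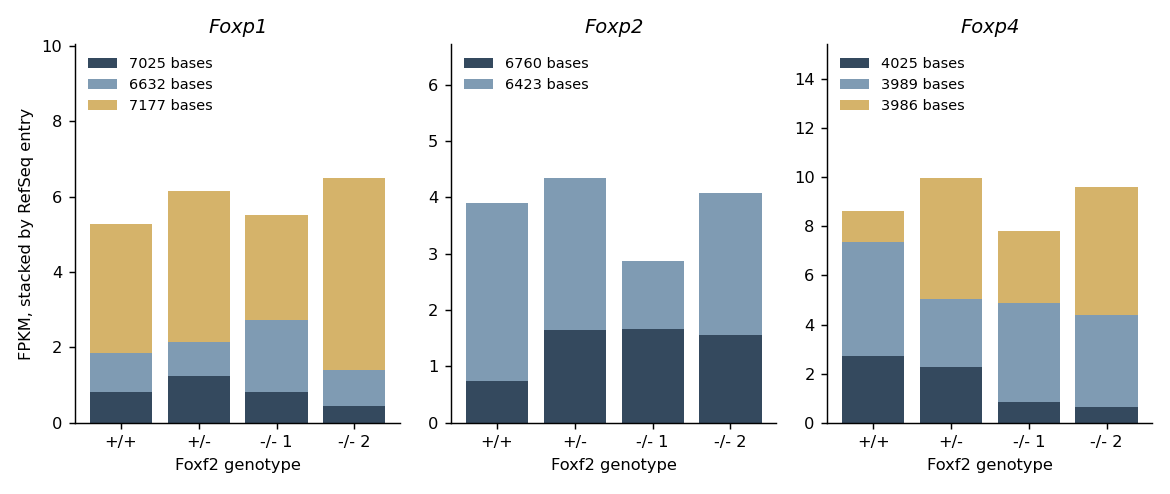
FPKM of *Foxp1*, *Foxp2* and *Foxp4* in each embryo, by *Foxf2* genotype, stacked by RefSeq entry and named by entry length. The summed bars differ little between embryos, while the *Foxp4* entry of 4025 bases takes 2.73 and 2.29 FPKM in the controls, against 0.850 and 0.635 in the mutants.

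At the lower end, *Foxl2*, a gene of ovary and eyelid, was at 1.15 ± 0.13 FPKM (SD, n = 2) in the controls, against 0.886 ± 0.55 in the mutants (log2 fold change -0.47, limma adjusted p = 0.669). Without mutant replicate 2 *Foxl2* passed the criterion as lower. *Foxo6*, a FoxO gene of the brain, and *Foxr1* entered the test only through 1 mutant embryo. *Foxo6* was at 0.283 ± 0.066 FPKM in the controls, against 0.622 ± 0.555 in the mutants (SD, n = 2), and *Foxr1* at 0.776 ± 0.144 and 0.868 ± 0.234. *Foxo6* passed the criterion as higher without the heterozygous embryo and also without mutant replicate 1.

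The other 20 Fox genes stayed below 1 FPKM in every embryo. Among these, 8 were listed at 0 in all embryos: *Foxa3*, *Foxb2*, *Foxd4*, *Foxe3*, *Foxh1*, *Foxi1*, *Foxi2* and *Foxn4*. The other 12 were above 0 in at least 1 embryo, with *Foxj1* the highest. They include factors that define other tissues, such as *Foxa1* and *Foxa2* of endoderm, *Foxd3* of premigratory neural crest and *Foxp3* of regulatory T cells. *Foxe1*, a gene of palate epithelium whose loss is a known cause of cleft palate, was at 0.276 FPKM in the heterozygous control and listed at 0 in the other embryos. *Foxs1* was at 0.0561 and 0.0976 FPKM in the controls, while it was listed at 0 for both mutants.

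Finally the embryos were set in order of *Foxf2* null alleles. Both mutants were above both controls for 7 Fox genes (*Foxc1*, *Foxc2*, *Foxd1*, *Foxn3*, *Foxo1*, *Foxo3* and *Foxq1*), against a background of 10.2%. They were below both controls for 3 (*Foxf2*, *Foxj3* and *Foxl1*), against a background of 35.5%. The heterozygous control lay between the wildtype control and both mutants for 6 of the higher genes, all but *Foxo3*, against a background of 5.19%. It did so for the same 3 lower genes, against a background of 23.5%. Between the controls, 16 of the 24 Fox genes had the higher value in the heterozygous embryo, against a background of 37.4%. FPKM were not rescaled between embryos for these counts, and the median log2 fold change of all genes tested was -0.08. The backgrounds are uneven between directions, and the orders were not counted after rescaling. For scale, the SD of the log2 difference over all genes tested was 0.307 between the mutants and 0.318 between the controls.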

How the data were processed

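RNA-seq values were available for RFP-positive palatal mesenchyme cells of 4 E13.5 embryos, 1 table each. The authors aligned their single-end reads with Tophat, on the mm9 genome, by Bowtie (0.12.7 in the submitters' processing notes). The deposited FPKM values, in tables of Cufflinks form, give each RefSeq entry scaled by length and mapped fragments. The deposited coverage is the mean read depth of an entry, a signal not scaled for library size. The program version, its options and the read length are not given in the sources used here. Libraries were made with the Nextera kit. No read counts were used here.

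FPKM was summed by symbol over entries of at least 200 bases, and 10 genes with a failed estimate were left out. Genes with 1 FPKM in at least 1 embryo were tested on log2(FPKM + 0.1), a scale on which differences of low genes come out too small. All fold changes are on this scale. A gene passed the criterion when the mutant mean lay over 1.5-fold above each control, or over 1.5-fold below each. The study's own test needs read counts and was not run. limma 3.58.1 in R 4.3.3, with a variance trend, compared mutants with both controls together. The Benjamini-Hochberg adjustment ran over all genes tested, and a call needed an adjusted p under 0.05 with a difference over 1.5-fold. P-values measure the spread between these embryos only, and no interval needing read numbers is given. The limma script was tested on simulated data.

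The members, lists and tests were chosen with earlier results of these data known, and a pattern already known is no independent support. Per-embryo values were named for Fox genes reaching 5 FPKM or passing either rule, group values for the others from 1 FPKM, and names or ranges below that, where not every gene is reported here. Of the regulator and target lists, the 3 genes with the highest FPKM and any that passed were named. Marker lists are given as sums, with the members that passed. Exceptions, named after their values were seen, were the per-embryo values of *Foxl1*, the other single markers, *Gadd45a*, *1700018A04Rik*, the Fox genes singled out below 1 FPKM and the CCAAT motif. Clusters were Fox genes within 500 kb of each other. Transcript sequences came from GENCODE vM1 (mm9), with a transcript for 43 of the 44 genes, and promoters from RefSeq (GRCm38.p6), with an entry for 28. There were 15 alternative settings, which varied the pseudocount, filter, entries, scaling, fold, limma design and embryos. Python 3.11.15 was used with pandas 2.3.3, numpy 2.4.6 and matplotlib 3.10.9.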

Additional observations from a re-analysis of the deposited data

How the results depend on the processing

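Over all 11571 genes tested the criterion gave 101 higher in the main setting, 47 with a pseudocount of 1 FPKM and 30 at more than 2-fold. With a filter of 5 FPKM it gave 34 of 7399. Of Fox genes it gave 4 higher in most settings. It gave 2 with a pseudocount of 1 FPKM (*Foxc2* and *Foxq1*) and 2 with a filter of 5 FPKM (*Foxd1* and *Foxq1*). At more than 2-fold it gave 1 Fox gene (*Foxq1*). Leaving out 1 embryo at a time gave 3 to 5. Over all genes tested the criterion gave 115 lower in the main setting and 294 of 21352 with no filter. With only the longest entry of each symbol it gave 300 of 10871. Of lower Fox genes it gave 1, but 2 with no filter (*Foxf2* and *Foxs1*) and 2 with only the longest entry (*Foxf2* and *Foxp4*). It gave 1 to 2 lower Fox genes when 1 embryo was left out, the second being *Foxl2* without mutant replicate 2.

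Over all 11571 genes limma called 6 higher in the main setting, 15 with a separate mean for each genotype and 12 with a linear term. Of Fox genes limma called 0 higher in the main setting. With a separate mean for each genotype *Foxq1* was called, with a log2 fold change of 2.53. Each control genotype had 1 embryo in that fit, so its spread came from the mutants alone. With the number of null alleles as a linear term limma called 2 Fox genes (*Foxq1*, log2 fold change 2.87, adjusted p = 0.032, and *Foxd1*, 0.76 and 0.044). Leaving out 1 embryo gave 0 to 2, with both genes called without the heterozygous control. limma called 1 lower gene, *Foxf2*, but 0 with no filter (adjusted p = 0.362), with only the longest entry (0.222), without a variance trend (0.138) and with the linear term (0.0665). The *Foxf2* log2 fold change lay between -5.49 and -4.37 throughout. The cause was not tested.

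Some small differences, none of them called, changed sign. Rescaling by median ratios gave 0.025 for *Foxf1a*, 0.0638 for *Foxk1* and 0.014 for *Foxm1*, and moved the median of all genes from -0.08 to -0.0008. The linear term gave 0.0478 for *Foxf1a* and -0.0415 for *Foxj2*. With 1 embryo left out, *Foxf1a* ranged from -0.227 to 0.115, *Foxj2* ranged from -0.119 to 0.17, *Foxk1* ranged from -0.102 to 0.0701, *Foxk2* ranged from -0.0833 to 0.1002, *Foxp1* ranged from -0.0443 to 0.184 and *Foxp4* ranged from -0.247 to 0.0504. No other setting reversed a Fox gene with at least 5 FPKM.

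No paired analysis was possible, because the embryos were littermates and nothing pairs a given mutant with a given control. With 2 embryos a group, 1 per control genotype, and depth in reads unknown, low genes such as *Foxc1* and *Foxc2* are limited by counting error that could not be given.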
